A study of Mus musculus with 6 samples.

Results

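Acute-phase genes are switched on when tissue is injured or inflamed, and 8 of them that stromal cells are known to make were followed here in synovial fibroblasts. These were Saa3, Lcn2, Hp, Cp, Ptx3, Lbp, Steap4 and Chil1, taken by symbol from a count table of 24348 genes. All 8 had at least 10 counts in at least 3 libraries, which is the level that 19925 genes reached and above which genes were tested. Fibroblasts were isolated from the lining tissue of joints (synovium) of C57BL/6 mice with a flow sorter, and their total RNA was sequenced. For 3 libraries the mice had received immune complexes (IC), which the study's methods describe as ovalbumin bound to rabbit antibodies and injected into a tail vein. For the other 3 the mice had received vehicle. No gene was deleted or introduced in either group. The labels give neither the age of the mice, the time after injection nor whether a library came from 1 mouse, so p-values measure only the spread between these samples. For its experiments in general, the study's methods state an age range of adult mice and the use of both sexes, without assigning them to libraries. Total counts ranged from 40114331 to 56714304 per library.

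The acute-phase response is best known from the liver, where interleukin-6 and interleukin-1 act through STAT3, C/EBP and NF-kB to raise secreted defence proteins. Fibroblasts and other stromal cells make a local version of it. Its products bind microbial lipids and bacterial iron carriers, keep hemoglobin and copper or iron from doing damage, and tag debris for removal.

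None of the 8 genes passed the test for a difference between IC and vehicle. DESeq2 gave an adjusted p to 6 of them and none to Hp and Chil1. By DESeq2, 2.1% of the genes tested had a Benjamini-Hochberg adjusted p under 0.05, and 1.03% did so with a higher level after IC. The quasi-likelihood test of edgeR called 0.186% of genes and also none of the 8. Saa3 was the single member with an unadjusted p under 0.05 by DESeq2 or edgeR. The log2 fold change was positive for 7 members and negative for 1, with a median of 0.38, against a median of -0.00 over all genes tested, of which 9881 were positive and 10044 negative. The genes fell into 4 that were abundant, Steap4, Lbp, Ptx3 and Cp, and 4 that were scarce, Lcn2, Saa3, Hp and Chil1, and the wide intervals were those of the scarce genes and Ptx3. In bulk RNA, fewer cells making a transcript and less of it per cell cannot be told apart.

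**Figure D1:**
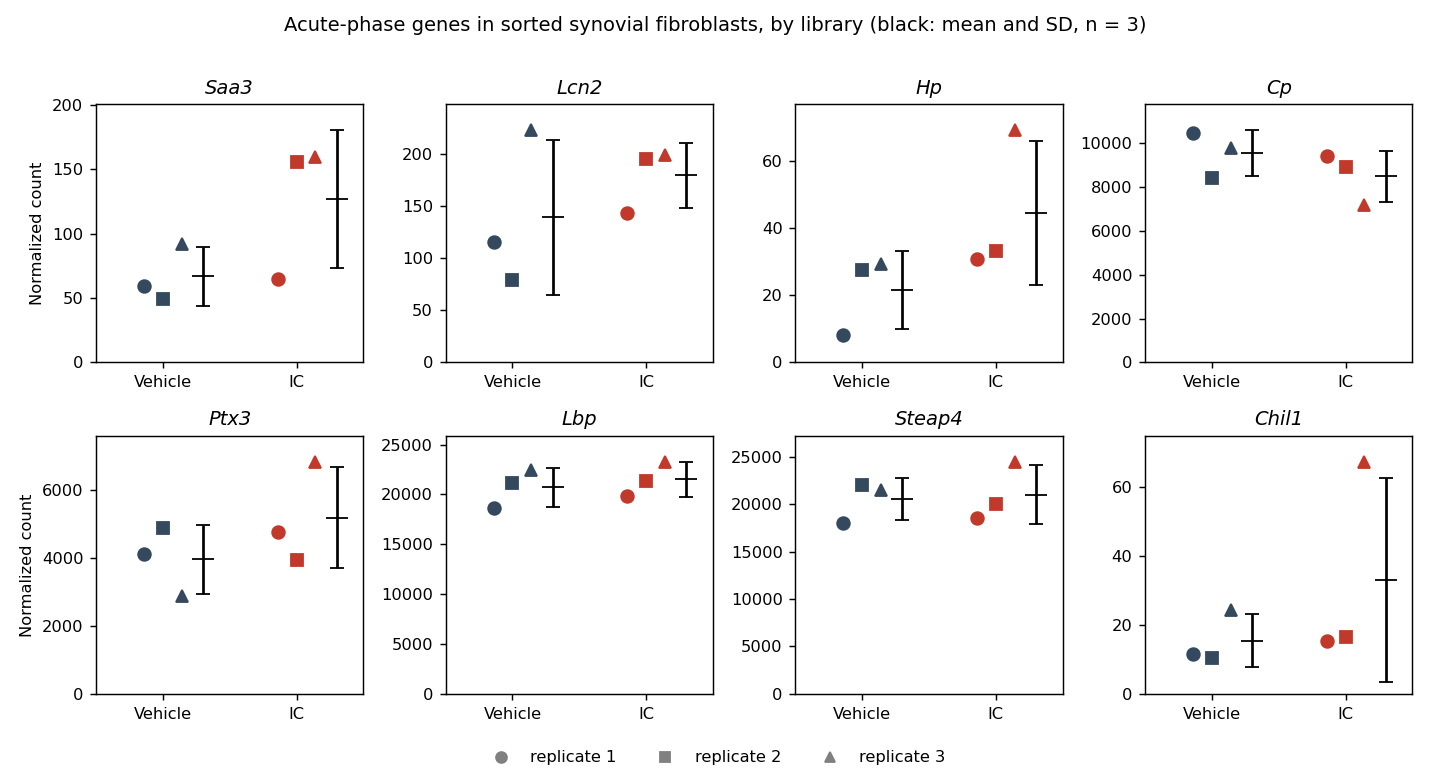
Normalized count (linear axis from 0) of each of the 8 acute-phase genes in each library, with vehicle in dark blue, IC in red and the marker shape giving the replicate number. Black bars are the mean and SD of 3 libraries. The groups overlap in 7 of the 8 genes. Over all genes tested, 8.09% had every IC library above every vehicle library, and 1529 of 19925 had every one below. IC replicate 3 is the highest library in 6 of the 8, and the share of all genes highest in that library was not counted.

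Levels were compared between genes per kilobase of exon, as normalized counts (counts divided by the DESeq2 size factor of the library) per kilobase of all annotated exons of the gene. Steap4, a metalloreductase of the plasma membrane that reduces iron and copper for uptake, had the highest level, with 6576 ± 768 (SD, n = 6 libraries), above 99.0% of the genes tested. Lbp, which carries bacterial lipopolysaccharide to CD14 and TLR4, had 4369 ± 350. Their ranges over the 6 libraries did not overlap. With the longest transcript as the length, however, Lbp came first at 8359 and Steap4 stayed at 6576, so the order of these genes depended on the length used.

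Ptx3, a long pentraxin that binds microbes and complement, followed at 1703 ± 493, and Cp, the copper-carrying ferroxidase ceruloplasmin, at 943 ± 120. These 2 overlapped in range over the libraries, but Ptx3 was above Cp within each library. Of the genes tested, 95.5% and 90.7% had a lower level. The other 4 genes were far lower, and no range of theirs reached that of Cp.

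Lcn2, a lipocalin that withholds iron by binding bacterial siderophores, had 60.7 ± 21.2 normalized counts per kilobase. Saa3, the serum amyloid A that macrophages, adipocytes and fibroblasts make outside the liver, had 37.2 ± 18.9. Hp, the hemoglobin-binding haptoglobin, had 20.5 ± 12.3 and Chil1, a chitinase-like protein without chitinase activity, 8.64 ± 7.71. The ranges of neighbours in this order overlapped over the libraries. Within each of the 6 libraries, however, the order was the same, with Lcn2 highest, then Saa3, Hp and Chil1. Between 8.53% and 34.4% of the genes tested had a lower level.

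**Figure D2:**
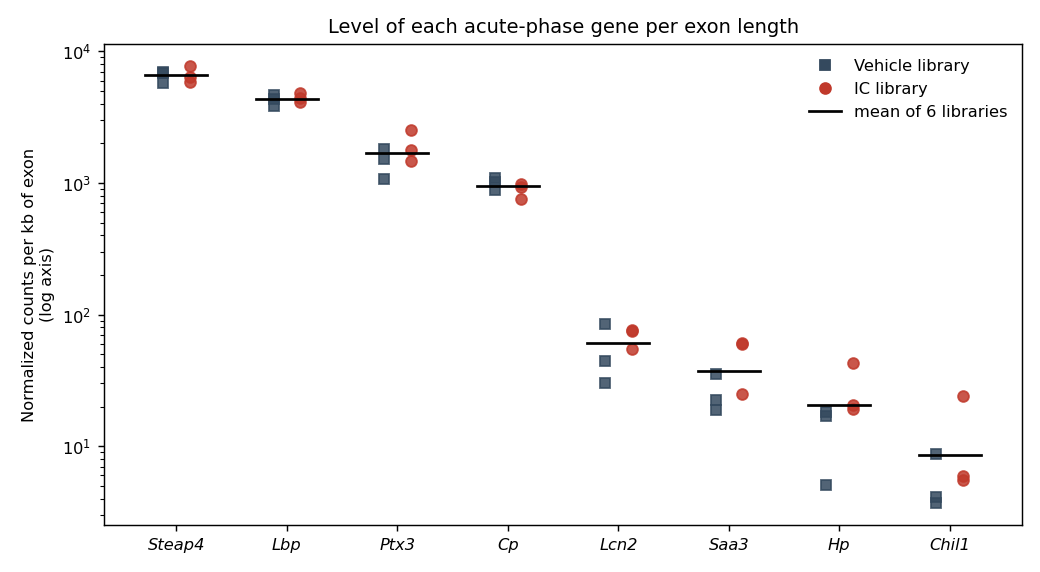
Level of each gene as normalized counts per kilobase of exon on a log axis, ordered by the mean of the 6 libraries (black line), with vehicle libraries as squares and IC libraries as circles. Steap4, Lbp, Ptx3 and Cp lie between 943 and 6576 on average, and the other 4 genes between 8.64 and 60.7.

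Saa3 lies on chromosome 7 on the minus strand (chr7:46711998-46715700; this and all coordinates are on GRCm38), beside the other serum amyloid A genes. Its normalized counts were 65.0, 156 and 160 in IC replicates 1, 2 and 3, and 59.0, 49.1 and 92.4 in vehicle replicates 1, 2 and 3. IC replicates 2 and 3 were above every vehicle library, whereas IC replicate 1 lay within the vehicle range, so the groups overlapped. The IC mean was 127 ± 53.6 and the vehicle mean 66.9 ± 22.7 (SD, n = 3 each). The log2 fold change was 0.93 ± 0.44 (SE), a 1.91-fold difference with a 95% confidence interval of 1.05 to 3.47, and the adjusted p was 0.363 (DESeq2) or 0.506 (edgeR). With 1 library left out in turn, the log2 fold change ranged from 0.73 without IC replicate 3 to 1.25 without IC replicate 1. The DESeq2 adjusted p was 0.755 and 0.120 in these 2 fits, and reached 0.827 without IC replicate 2. Counting error alone would give an SD of 8.82% of the mean in the IC group, against 42.2% observed. Of the 50-base stretches in its exons, 4.15% also occur in other annotated genes, so some reads could be counted elsewhere or not at all.

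Lcn2 (chr2:32384633-32388252, minus strand) had 143, 195 and 199 normalized counts in IC replicates 1 to 3, and 116, 79.3 and 223 in the vehicle replicates. The highest value of all 6 was that of vehicle replicate 3, and the groups overlapped throughout. The means of 179 ± 31.2 and 139 ± 74.4 (SD, n = 3 each) differed by a log2 fold change of 0.37, with a 95% confidence interval of -0.36 to 1.10 (DESeq2 adjusted p = 0.844). The log2 fold change was 0.88 without vehicle replicate 3 (adjusted p = 0.304) and 0.09 without vehicle replicate 2 (0.986), so its size depended on single control libraries.

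Hp (chr8:109575128-109579172, minus strand) had 30.9, 33.1 and 69.0 normalized counts after IC, and 8.20, 27.4 and 29.2 after vehicle, in replicates 1, 2 and 3. It was the 1 gene of the 8 with every IC library above every vehicle library, a pattern that 8.09% of all genes tested showed in this direction. The gap between the groups was narrow, from 29.2 to 30.9, and within the counting error of those libraries, whose 95% Poisson intervals were 18.7 to 43.4 and 20.5 to 44.6. The raw counts behind these values ran from 10 to 77. The log2 fold change of 1.05 had an interval of -0.30 to 2.40 and an unadjusted p of 0.128. DESeq2 gave no adjusted p at this level, and edgeR gave 0.687. The Poisson intervals cover counting error only.

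Chil1 (chr1:134182176-134190181, plus strand) was the scarcest, with 15.4, 16.5 and 67.2 normalized counts in IC replicates 1 to 3 and 11.5, 10.4 and 24.3 in the vehicle replicates. IC replicates 1 and 2 lay within the vehicle range, and IC replicate 3 stood alone above it with 75 raw counts. The log2 fold change was 1.12 with an interval of -0.49 to 2.73 (edgeR adjusted p = 0.731). It came to 0.07 without IC replicate 3. In the IC group counting error would give an SD of 17.0% of the mean, against 89.5% observed.

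Ptx3 (chr3:66219910-66225805, plus strand) had 4765, 3953 and 6830.1 normalized counts after IC and 4108, 4888 and 2867 after vehicle, in replicates 1, 2 and 3. IC replicate 3 was the highest library and vehicle replicate 3 the lowest, and the other 4 lay between them with no order by group. The means were 5183 ± 1483 and 3954 ± 1019 (SD, n = 3 each), with a log2 fold change of 0.39, an interval of -0.24 to 1.02 (DESeq2 adjusted p = 0.760). With each of the 6 libraries left out in turn, that value ranged from 0.14 without IC replicate 3 to 0.57 without vehicle replicate 2. Counting error was 1.38% of the mean in the IC group against an observed SD of 28.6%, so depth was not the limit for this gene. The gene lies within the span of Veph1 on the opposite strand and shares no exonic base with it.

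The other 3 abundant genes had the narrowest intervals of the 8. Cp (chr3:19957054-20009145, plus strand) had 9404, 8901 and 7179 normalized counts after IC and 10454, 8397 and 9795 after vehicle. It was the 1 member with a lower mean after IC, 8495 ± 1167 against 9549 ± 1050 (SD, n = 3 each), and the groups overlapped. The log2 fold change was -0.17, with an interval of -0.39 to 0.05 (DESeq2 adjusted p = 0.646). An overlap of 108 exonic bases with Hps3, on the opposite strand, covers 1.13% of its exons.

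Lbp (chr2:158306493-158332852, plus strand) had 19856, 21351 and 23275 normalized counts in IC replicates 1 to 3 and 18620.2, 21103 and 22429.7 in the vehicle replicates. The ranges overlapped almost whole, and the log2 fold change was 0.05 with an interval of -0.12 to 0.23 (DESeq2 adjusted p = 0.929).

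Steap4 (chr5:7960457-7982213, plus strand) had 18492, 20051 and 24463 normalized counts after IC and 17968, 22050.4 and 21469 after vehicle. Here too the groups overlapped, and the log2 fold change was 0.04 with an interval of -0.18 to 0.25 (DESeq2 adjusted p = 0.972). For Cp, Lbp and Steap4 together, the 95% intervals of the fold ran from 0.765 at the lowest to 1.19 at the highest. The signs of Lbp and Steap4 turned when IC replicate 3 or vehicle replicate 1 was left out, to -0.01 and -0.02 for Lbp and to -0.09 and -0.05 for Steap4.

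**Figure D3:**
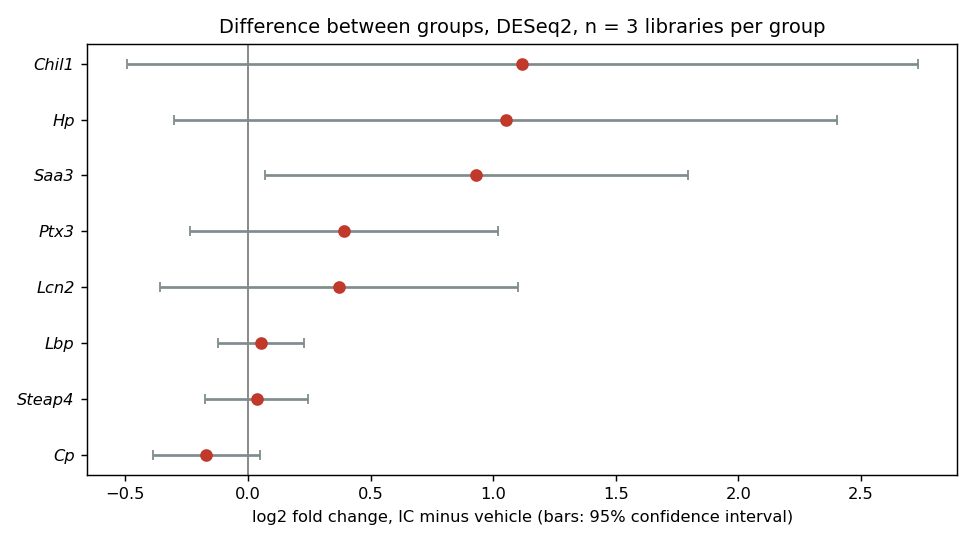
Log2 fold change, IC minus vehicle, of the 8 genes by DESeq2 (points) with the 95% confidence interval (bars), 3 libraries per group. The intervals of Lbp, Steap4 and Cp are narrow and include 0, those of Hp and Chil1 are wide and include 0, and that of Saa3 runs from 0.07 to 1.79 before any adjustment for the number of genes tested.

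Cells of other types are also known to make these genes, and their markers were summed in each library. Of 13 neutrophil markers 6 were in the table, and their summed level, in CPM scaled with the size factors, was 0.711 to 1.29 after IC and 0.597 to 0.904 after vehicle. The defining markers S100a9, Ly6g and Csf3r were not in the table. S100a8 had 6, 12 and 6 raw counts in the IC libraries and 0 in each vehicle library. Camp, Mmp9 and Mpo also had higher means after IC, whereas Ngp and Elane had lower ones. Elane, the 1 marker of the list that was tested, had means of 13.3 after IC and 21.6 after vehicle. IC replicate 3, the highest library for 6 of the 8 genes, with Chil1, Hp and Ptx3 among them, was also the highest for the neutrophil sum. Lcn2 was highest in vehicle replicate 3. S100a8 was not highest in IC replicate 3, with 5.38 normalized counts against 12.4 in IC replicate 2. The part of such cells in the values of Lcn2, Hp, Chil1 and Ptx3 was not tested.

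For the hepatocyte list, 5 of 9 markers were in the table, with sums of 0.857 to 1.42 after IC and 1.14 to 2.61 after vehicle. Alb, which encodes the albumin that hepatocytes secrete, had 4.34 normalized counts per kilobase of exon, against 4369 for Lbp. The 9 of 10 adipocyte markers in the table summed to 21.9 to 24.1 and 22.3 to 30.5. The 9 of 10 mural markers in the table, of cells also known for Steap4, summed to 505 to 616 after IC and 600 to 685 after vehicle. Of these 9, 7 had a negative log2 fold change, and Des, Myh11 and Notch3 were lower in every IC library. Myh11 was the 1 called, at -0.96 (adjusted p = 0.0131 by DESeq2, 0.237 by edgeR). The part of such cells in Steap4 was not tested. All 9 chondrocyte markers, of cells known for Chil1, summed to 729 to 818 after IC and 461 to 705 after vehicle without overlap. Comp, with means of 32217 and 24643 normalized counts, made up most of that sum, whereas 5 of the 8 chondrocyte markers tested had a negative log2 fold change (median -0.19) and Col2a1 was lower in every IC library, at -0.75. Their part in Chil1 was not tested. The summed level of the 9 endothelial markers also did not overlap, at 243 to 296 after IC and 303 to 337 after vehicle. In every IC library 4 of these markers were lower and 1, Ackr1, was higher, at a log2 fold change of 0.34. The 10 skeletal muscle markers summed to at most 40.7 after IC and to 37.7 to 87.8 after vehicle. Of 15 macrophage markers 10 were in the table, without Adgre1 and Ptprc, and they summed to 33.3 to 51.6 after IC and 41.8 to 51.2 after vehicle. Fibroblast markers, with all 11 in the table, summed to 44139 to 46801 after IC and 44164 to 56882 after vehicle.

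Genes of the same pathways were taken from 5 lists, of which 86 different genes were tested and 7 were called by DESeq2, 6 higher and 1 lower. The share called, 8.14%, stands beside 2.1% of all genes, and the lists were drawn up with earlier results of these data known. Serpina3n alone of the 7 was also called by edgeR.

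Other acute-phase genes came to 41, of which 28 were in the table and 22 tested, with 2 called higher, none lower and a median log2 fold change of 0.08. Serpina3n, an acute-phase inhibitor of serine proteases, had 15817, 20470.3 and 25045 normalized counts after IC and 5642, 7054 and 6106 after vehicle. Every IC library was above every vehicle library, at a log2 fold change of 1.71 (adjusted p = 4.20e-34 by DESeq2, 0.00401 by edgeR). Its neighbour Serpina3m had 67.2, 145 and 126 after IC and 30.3, 13.2 and 3.65 after vehicle, at a log2 fold change of 2.81 (adjusted p = 0.000532 by DESeq2, 0.107 by edgeR). The genes of this serpin cluster are near copies, and reads of one could be counted as the other.

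C3, Serping1 and Tnfaip6 were the most abundant of the list and were not called. C3, the central complement protein, had log2 fold change -0.07, the complement inhibitor Serping1 had -0.11, and Tnfaip6, a hyaluronan-binding partner of pentraxin 3, had 0.14. The liver-type members were scarce. Saa1 had 16.5, 40.3 and 59.1 normalized counts after IC and 23.8, 19.8 and 19.5 after vehicle, without an adjusted p. Saa2 had 7, 4 and 7 raw counts after IC and 0, 0 and 1 after vehicle, and was too low to be tested. Crp had 1, 0 and 10 against 10, 0 and 0.

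Among relatives of the 8 genes, 25 were listed, 15 were in the table and 12 tested, with none called higher and 1 lower, and a median of -0.08. Steap3, a ferrireductase of endosomes from the family of Steap4, had 13396, 12567.5 and 14652 normalized counts after IC and 14834.5, 18364 and 19024 after vehicle. Its IC libraries were all below the vehicle libraries, with IC replicate 3 and vehicle replicate 1 nearly level, and it fell by 0.36 on the log2 scale (adjusted p = 0.0176 by DESeq2, 0.208 by edgeR). Leaving out IC replicate 1 (adjusted p = 0.134) or 2 (0.211), or vehicle replicate 2 (0.197) or 3 (0.319), ended the call. Steap2, with a log2 fold change of -0.16, and Steap1, with -0.17, were not called. Of the lipocalin relatives of Lcn2, Apod was the most abundant of the list with a log2 fold change of -0.01. Rbp4 was higher in every IC library, at 0.52 (adjusted p = 0.296 by DESeq2). The scarce Ptgds was lower in every IC library, with 10, 0 and 1 raw counts after IC and 61, 31 and 30 after vehicle. Its log2 fold change was -3.31, without an adjusted p by DESeq2 and with 0.305 by edgeR. Also lower in every IC library were Pltp, at -0.53 (adjusted p = 0.0646 by DESeq2), and Heph, at -0.70 (adjusted p = 0.123 by DESeq2).

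Of 16 receptors and partners, 14 were tested and none called, with a median of -0.00. The lipopolysaccharide receptor gene Tlr4, to which Lbp delivers its cargo, had a log2 fold change of -0.00, its partner Ly96 -0.44 with an adjusted p of 0.819, and Cd14 -0.31 with 0.876. Tnfaip6, Lrp1 and Cd44 were the most abundant by length, and the hyaluronan receptor Cd44 had a log2 fold change of 0.25 with an adjusted p of 0.242 by DESeq2.

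Of 28 upstream signals 26 were tested and 3 called by DESeq2, all higher, with a median of 0.12, and none was called by edgeR or limma-voom. Every IC library was above every vehicle library for 8 of the 26, against 8.09% of all genes tested, and for 3 of the 22 other acute-phase genes, 1 of the 12 relatives, 0 of the 14 receptors and partners and 3 of the 18 iron-handling genes. Every IC library was below for 4 of the 12 relatives, 1 of the 14 receptors and partners and 2 of the 18 iron-handling genes, against 1529 of the 19925 genes tested. Il6, the cytokine that drives the acute-phase response, had 9669, 8776 and 12711 normalized counts after IC and 8101, 6311 and 6940.4 after vehicle. It rose by 0.55 on the log2 scale with an adjusted p of 0.00183 by DESeq2, against 0.152 by edgeR, and leaving out IC replicate 3 (adjusted p = 0.0613) or either vehicle replicate 2 (0.0741) or 3 (0.0854) ended the call. The NF-kB subunit gene Nfkb2 had 15799.5, 17391 and 14315 after IC and 12944, 12054 and 13289 after vehicle, a rise of 0.31 on the log2 scale (adjusted p = 0.0208 by DESeq2, 0.215 by edgeR).

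Socs3, the feedback inhibitor of STAT3 signaling, had 55021, 53165 and 55069 after IC and 46527, 45995 and 47746 after vehicle, a rise of 0.22 on the log2 scale (adjusted p = 0.0305 by DESeq2, 0.267 by edgeR). The calls of both Nfkb2 and Socs3 depended on which libraries were included. For Nfkb2 it ended when IC replicate 1 (adjusted p = 0.112) or 2 (0.221), or vehicle replicate 2 (0.164) or 3 (0.0749), was left out. For Socs3 it ended when IC replicate 1 (0.108) or 3 (0.0644), or vehicle replicate 2 (0.0824), was left out. With the replicate number as a block their adjusted p came to 0.0905 and 0.162. Stat3, Cebpb and Cebpd, whose products act on acute-phase promoters, had log2 fold changes of 0.23, 0.22 and 0.09 with adjusted p of 0.216, 0.182 and 0.732 by DESeq2. The receptor subunit Il6st had -0.04, and Tnf, which had 157 normalized counts in vehicle replicate 1 and 19.8 to 39.7 in the other 5 libraries, was not called.

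All 18 iron-handling genes were tested, with 1 called higher, none lower and a median of -0.04. Hmox1, heme oxygenase 1, had 3818, 3991 and 4133 normalized counts after IC and 2766.5, 2807 and 1986 after vehicle, without overlap. It rose by 0.66 on the log2 scale (adjusted p = 4.45e-05 by DESeq2, 0.0593 by edgeR). The ferritin genes Ftl1 and Fth1 were the most abundant of the list, with log2 fold changes of 0.15 and 0.18 and adjusted p of 0.505 and 0.569.

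**Figure D4:**
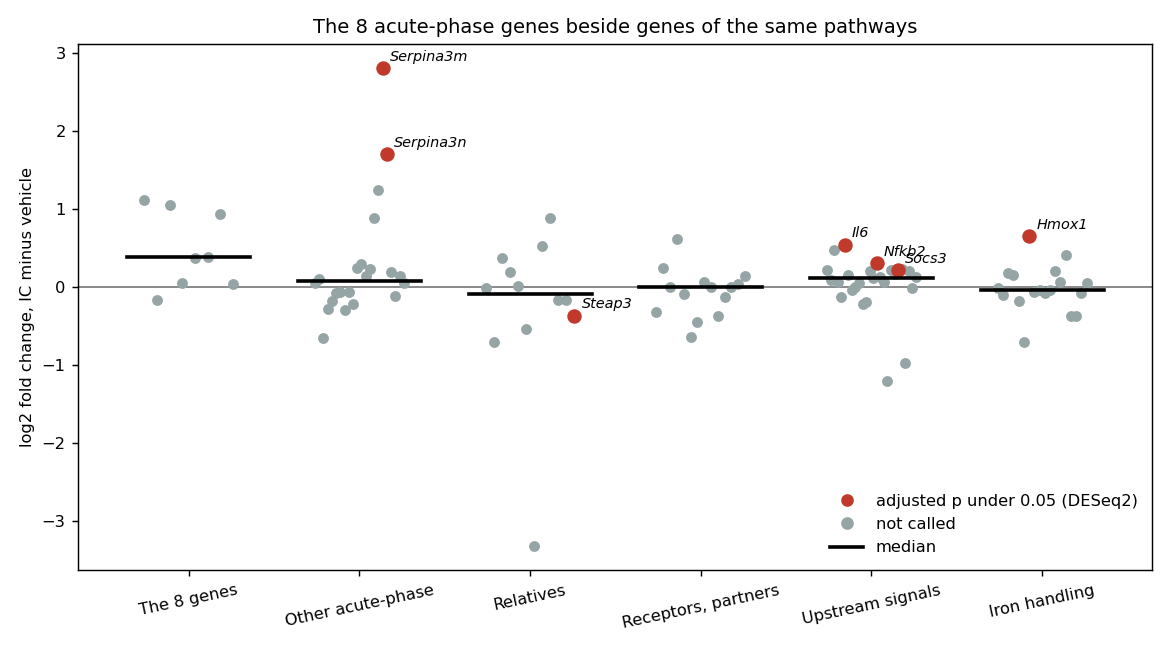
Log2 fold change, IC minus vehicle, of the 8 genes and of the tested genes of 5 pathway lists, with called genes in red and named, others in grey and the median of each list as a black line. None of the 8 genes is red, Serpina3m and Serpina3n stand at 2.81 and 1.71, and Il6, Nfkb2 and Socs3 at 0.55, 0.31 and 0.22.

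The genes whose level followed that of each member most closely over the 6 libraries were taken as a description, by Pearson's r of variance-stabilized values among 13435 genes. The points are the 6 libraries, which every pair of genes shares. With so few points and so many genes to choose from, a high r is likely for any gene, and no p was computed. Ptx3 went with Psma4 (0.987) and Rbl1 (0.973), Saa3 with Yrdc (0.991), Atp5j2 (0.990) and Ddah2 (0.986), and Lcn2 with Ccndbp1 (0.990) and Tbl1xr1 (0.977). Hp went with Cyp7b1, Parp3 and B4galt1, Cp with Smyd3, Rbpms and Aldh4a1, and Lbp with Lrrc41, Snrpd2 and Ifnar1, all at 0.984 or above. Steap4 went with Sertad4, Ilrun and Pecr and Chil1 with Sppl2a, Ncbp1 and Parp11, at 0.978 or above.

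The promoters of 6 members are in RefSeq's table for GRCm38.p6, those of Saa3, Lcn2, Cp, Ptx3, Steap4 and Chil1. The 250 bases before each start site were searched on both strands for the letters GGGNNNNNCC of NF-kB, TTGCNNAA of C/EBP and TTCNNNGAA of STAT factors, which carry the acute-phase signal. C/EBP letters were found for 5 of the 6, against 9.57% of 32536 promoters. NF-kB letters were found for 4 of the 6, against 46.0%, and STAT letters for 1, Steap4, against 7.04%. Cp has 2 start sites in the table, and its matches are before the second. All 100 bases from 130 to 31 before that site are annotated exon, and its C/EBP match lies among them. Of the same stretch in Lcn2, 47 bases are exon. Cp was counted if either site had a match, whereas the shares of all promoters count single sequences. No 2 matches overlapped, and a match is a run of letters, not a shown binding site. Among the promoters of the genes tested the shares were 60.5% for NF-kB, 7.22% for C/EBP and 5.96% for STAT.

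The stretch from 130 to 31 bases before the start is shown for the 4 members in which it holds a match and no annotated exon, Steap4, Ptx3, Saa3 and Chil1. Sequences run 5′ to 3′ on the strand of the gene, and capitals mark the matches. Steap4 is at chr5:7960342-7960441 (plus strand) and has STAT, C/EBP and NF-kB letters in that order. Ptx3 is at chr3:66219757-66219856 (plus strand) and Saa3 at chr7:46715707-46715806 (minus strand), each with a C/EBP match read on the opposite strand, and Chil1 is at chr1:134182026-134182125 (plus strand) with an NF-kB match.
Steap4: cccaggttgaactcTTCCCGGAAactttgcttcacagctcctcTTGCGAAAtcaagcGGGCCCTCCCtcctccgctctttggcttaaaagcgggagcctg
Ptx3: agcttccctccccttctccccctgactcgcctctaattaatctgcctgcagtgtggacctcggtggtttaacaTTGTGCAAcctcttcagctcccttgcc
Saa3: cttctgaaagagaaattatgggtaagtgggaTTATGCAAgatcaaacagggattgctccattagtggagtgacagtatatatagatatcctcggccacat
Chil1: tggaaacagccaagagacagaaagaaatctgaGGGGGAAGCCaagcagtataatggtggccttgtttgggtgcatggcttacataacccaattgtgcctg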

How the data were processed

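Raw counts of reads per gene were deposited by the authors, who per the labels and methods trimmed reads with Trim Galore, checked them with FastQC, aligned them to mm10 with HISAT2 and counted them with featureCounts. Versions, annotation and strand setting are not given in the sources used here. The labels name an Illumina stranded total RNA kit and the methods a SMARTer Pico kit.

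Genes that reached 10 counts in 3 or more of the libraries entered the Wald test of DESeq2 (version 1.42.0), the tool of the study, with treatment as the only term and default size factors, independent filtering and Cook's cutoff. Calls were made at a Benjamini-Hochberg adjusted p under 0.05 over all 19925 genes, of which 3870 got no adjusted p. The methods also name sva, without the number of surrogate variables. Fold changes are unshrunken, and intervals are 95%. Beside it stands edgeR (version 4.0.16) with its quasi-likelihood test. Alternatives were limma-voom (limma version 3.58.1), scaling by TMM or by total counts, every gene kept, DESeq2's filters off, the replicate block, 1 surrogate variable from sva (version 3.50.0) and each library left out in turn. The tests were checked on simulated data.

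Lengths and coordinates came from GENCODE M21 (GRCm38, the assembly of mm10), in which 98.16% of symbols were found. Similar patterns were sought among genes with a mean of at least 100 normalized counts. The members and lists were chosen with earlier results of these data known. Named genes were all members, the called genes of each list or otherwise its 3 highest, and the 3 closest neighbours of each member, of which some are not reported here. Those such as Saa1, Saa2, Crp, Stat3, Cebpb, Cebpd, Ly96, Cd14, Steap1, Steap2, Rbp4, Ptgds, S100a8, Elane, Alb, Il6st and Tnf were named after their values were seen. The same holds for Pltp, Heph, Ackr1, Des, Myh11 and Notch3.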

Additional observations from a re-analysis of the deposited data

How the results depend on the processing

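None of the 8 acute-phase genes was called in any of the 14 alternatives, 8 of them other settings and 6 with 1 library left out. Hp got no adjusted p in 6 of the 14 and Chil1 in 8, so they could not be called in those. DESeq2 called 419 genes, edgeR 37 and limma-voom 62, and 282 to 671 with 1 library left out, the most without vehicle replicate 1. Of the pathway lists, 7 genes were called by DESeq2, 1 by edgeR, 2 by limma-voom and 4 with 1 surrogate variable, and 3 to 13 with 1 library left out, the fewest without vehicle replicate 2 and the most without vehicle replicate 1. The cause of these differences was not tested. With 1 library left out, the log2 fold change ranged from -0.0192 to 0.115 for Lbp and from -0.0878 to 0.119 for Steap4, the 2 members whose sign turned, and from 0.07 to 1.60 for Chil1. The replicate block gave 320 called genes and 0 of the 8. The correlations between deviations of IC and vehicle libraries with the same number were -0.0918, -0.165 and 0.025 over 13435 genes, so the numbers were not taken as a pairing. For all 8 genes the SD between libraries was larger than the SD that counting error alone would give, in both groups.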
